A study of Homo sapiens with 4 samples.

Results

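Nonsense-mediated decay is the pathway that recognizes stop codons in abnormal positions and removes the mRNAs that carry them. A group of 9 of its factors was examined here: UPF1, UPF2, UPF3B, SMG1, SMG5, SMG6, SMG8, SMG9 and CASC3. Genes were taken by name from the 4 deposited tables, which together list 9271 transcripts, a single transcript per gene. A row was found for 6 of the 9 factors in every table (UPF1, UPF2, SMG6, SMG8, SMG9 and CASC3), and 8568 transcripts in all are listed in every table. UPF3B, SMG1 and SMG5 have no row and their reads were not analysed here.

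The tables hold ribosome profiling data, in which the mRNA fragments protected by ribosomes (RPFs) are sequenced and assigned to the 5′UTR, the coding sequence (CDS) and the 3′UTR. The cells were HEK293T, a line derived from human embryonic kidney that carries the large T antigen of a simian virus. There were 2 libraries of untreated cells (A and B) and 2 of cells given 500 µg/mL G418 for 24 hours (A and B), and the study calls them biological replicates. G418 is an aminoglycoside that binds the decoding site of the ribosome and lowers its accuracy, also at stop codons. All 4 libraries come from the same cell line with no other genetic change, and the data are RPFs alone, so a change in mRNA amount and a change in its translation cannot be told apart. Reads on mRNAs ranged from 2440204 in untreated B to 6082600 in untreated A. The transcripts of all 5 marker genes set down for this line (NEFM, NEFL, INA, ENO2 and VIM) were listed in every table, at 10.6 to 658 RPKM (reads scaled to library size and region length), and 1 of 6 markers of other cell types was listed (COL1A1).

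UPF1 is an RNA helicase that binds mRNA and meets terminating ribosomes, and UPF2 links it to UPF3B, which contacts the exon junction complex, the proteins left on mRNA near each splice junction. SMG1 is the kinase that phosphorylates UPF1, with SMG8 and SMG9 as its regulatory subunits. SMG6 is an endonuclease that cuts the mRNA near the stop codon, SMG5 brings in further decay enzymes, and CASC3 is a component of the exon junction complex. Several mRNAs of these factors are themselves known substrates of the pathway and accumulate when decay is blocked. Which of the 9 factors these are was not examined here. UPF3B, SMG1 and SMG5 could not be compared, so the 6 others are not a full test of such feedback. The comparison asks whether RPFs on the mRNAs of these 6 were higher in G418-treated cells. It also asks how often ribosomes passed their own normal termination codons (NTCs).

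The sequences around the NTCs are shown because the stop codon and the nucleotide after it (+4) are the context in which readthrough of each factor was measured. They are mRNA sequences from GENCODE 44 on hg38, read 5′ to 3′, with the NTC and the +4 nucleotide in capitals.
UPF1: ctgtcccagtatTAAAaggtggcggcggaa
UPF2: gggaggagacgtTGATccagcagcacgtgt
SMG6: gcccaggtgggcTGAGggagccacactggg
SMG8: gcagtaacacaaTAAGtgttttccagccag
SMG9: cgcctgctggccTGAGgccaaggagaggaa
CASC3: aggggttccagtTAATacaagtttctgaat
The NTCs lie at chr19:18866161-18866163 on the plus strand for UPF1, chr10:11921298-11921300 on the minus strand for UPF2, and chr17:2061492-2061494 on the minus strand for SMG6. Those of the others lie at chr17:59215000-59215002 on the plus strand for SMG8, chr19:43731596-43731598 on the minus strand for SMG9, and chr17:40169619-40169621 on the plus strand for CASC3. Stop codon and +4 nucleotide equalled the deposited values for all 6. The distance to the first in-frame 3′UTR stop codon (3′TC) did so once a codon was added to it, as in UPF1 (33 nt against 36 nt deposited). TAA is the NTC of 3 factors (UPF1, SMG8 and CASC3) and TGA that of the other 3, against 27.7% TAA, 22% TAG and 50.3% TGA among the 8568 transcripts. None of the 6 has C at +4, which 23.2% of the transcripts have.

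The 3 factors without a row share a 3′TC very near the NTC. In the sequences below, from their canonical transcripts in GENCODE 44, capitals mark both the NTC and its nearest in-frame 3′TC.
UPF3B: ggaggagaggagTGATAAgtccagatggcc
SMG1: acagcctgggtgTGAatggcaagacagTAG
SMG5: aaggaaattggtTGAtacTGAcccccaggc
The NTCs are at chrX:119834878-119834880 for UPF3B, chr16:18809569-18809571 for SMG1 and chr1:156250587-156250589 for SMG5, all on the minus strand. A ribosome that passed the NTC would read 0 codons before the 3′TC in UPF3B, 4 in SMG1 and 1 in SMG5, whereas the shortest such stretch of any listed transcript is 5 codons. The paper left out transcripts in which this stretch was under 5 codons. The missing rows of the 3 factors therefore need not mean a lack of reads. The transcripts chosen for them are not known, so this was not tested. For the listed factors the stretch is 11 codons in UPF1, 12 in UPF2, 13 in SMG6, 46 in SMG8, 37 in SMG9 and 12 in CASC3.

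The 6 mRNAs differ in 3′UTR length, splice junctions after the NTC and ATGs in the 5′UTR. Decay is known to respond to a long 3′UTR, start codons in the 5′UTR and an exon junction complex beyond the stop codon. The paper describes that complex as deposited upstream of each splice junction. A junction close after the NTC therefore need not place it beyond the NTC, and whether the junctions below do so was not tested. In the tables the 3′UTR is 3613 nt long in SMG9, 1766 nt in CASC3, 1719 nt in UPF1, 1649 nt in SMG6, 1275 nt in UPF2 and 237 nt in SMG8, against a median of 935.5 nt over all transcripts. The NTC of UPF1 lies in exon 23 of 24, with the last splice junction 3 nt after it, in a GENCODE 44 transcript whose 3′UTR is 1713 nt long and so does not match the tables in full. The NTC of CASC3 lies in exon 13 of 14, with the junction 41 nt after it and thus beyond its first 3′TC. The other 4 end in their last exon, and 4.35% of the 7241 transcripts whose CDS, NTC and 3′UTR matched GENCODE 44, which leave out UPF1, do not. The 5′UTR holds 4 ATG triplets in UPF2 and 1 in SMG9, and no ATG in SMG6, SMG8 or CASC3. Among 6676 transcripts whose 5′UTR length also matched, 41.7% had at least 1 ATG there. For UPF1 the 5′UTR of GENCODE 44 is 251 nt against 272 nt in the tables. The 251 nt hold 0 ATGs, and the ATGs of the longer 5′UTR are not known.

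None of the 6 decay factors with a row was called higher in CDS reads in G418-treated cells. The log2 fold changes of all 6 were below 0, and that of UPF1 alone passed the test, as a decrease. Across all transcripts, edgeR's quasi-likelihood test on CDS counts, scaled by the trimmed mean of M values (TMM), called 451 of 8494 higher in G418-treated cells (5.31%) and 273 lower (3.21%), where a call means a Benjamini-Hochberg adjusted p under 0.05. Of the 6 decay factors 0 were called higher and 1 was called lower. At an unadjusted p of 0.05 that number was also 1, and DESeq2 called 0 in either direction. The median log2 fold change of the factors was -0.12, beside 0.0025 over all transcripts. The factors are different genes measured in the same libraries and are not replicates of the comparison.

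**Figure D1:**
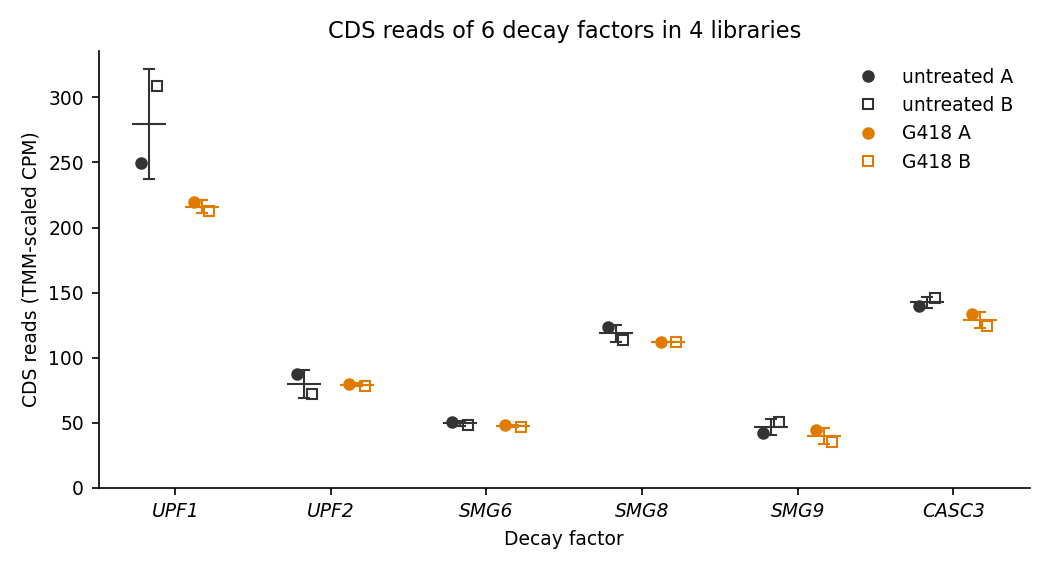
CDS reads of the 6 decay factors in TMM-scaled CPM, with filled circles for replicate A, open squares for replicate B, horizontal lines for the mean and bars for the SD (n = 2). The G418 libraries lie below both untreated libraries for UPF1, SMG6, SMG8 and CASC3, and overlap them for UPF2 and SMG9.

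UPF1, the helicase at the center of the pathway, had 249.5 CPM (CDS counts scaled to TMM library size) in untreated A and 309 in untreated B, and 219.9 and 212.4 in G418 A and B. Both G418 libraries were lower than both untreated libraries, and the untreated pair was spread more widely than the treated pair. The CDS counts of UPF1 fell by 0.35 on the log2 scale (standard error 0.10, fold 0.782 with a 95% interval of 0.679 to 0.902, adjusted p = 0.024 from edgeR). The call did not hold under every setting. DESeq2 gave a log2 fold change of -0.37 with an adjusted p of 0.079, and scaling edgeR by library totals gave -0.25 with an adjusted p of 0.1. A stricter minimum of CDS counts in each condition gave a log2 fold change of -0.33 with an adjusted p of 0.053 in edgeR. Without untreated B the log2 fold change was -0.21 and without untreated A it was -0.51. Without G418 A it was -0.39 and without G418 B -0.34. In each of these edgeR fits the lone library of a condition was assumed to vary like the pair of the other condition. Only their effect sizes are therefore given here.

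UPF2, the adaptor of UPF1, had 87.67 and 72.42 CPM in untreated A and B, and 79.9 and 78.34 in G418 A and B. The G418 libraries lay between the untreated ones. Its log2 fold change was -0.046 (standard error 0.12, adjusted p = 0.86 from edgeR).

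SMG6, the endonuclease, had 50.95 and 48.13 CPM in untreated A and B against 48.01 and 46.83 in G418 A and B. The groups did not overlap, but the gap of untreated B to G418 A was smaller than the distance within either pair. The log2 fold change was -0.073 (standard error 0.13, adjusted p = 0.8 from edgeR).

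Among the subunits of the SMG1 kinase complex, SMG8 had 123.3 and 113.8 CPM in untreated A and B and 112.2 and 111.8 in G418 A and B. SMG9 had 42.49 and 50.83 in untreated A and B and 44.16 and 35.39 in G418 A and B. The groups did not overlap for SMG8 and overlapped for SMG9. Neither passed the test, with log2 fold changes of -0.093 (standard error 0.11, adjusted p = 0.65 from edgeR) for SMG8 and -0.19 (standard error 0.15, adjusted p = 0.48 from edgeR) for SMG9.

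CASC3, the exon junction complex component, had 139.7 and 145.7 CPM in untreated A and B and 133.4 and 124.3 in G418 A and B. Both treated libraries were lower than both untreated ones. Its log2 fold change of -0.14 did not pass the test (standard error 0.10, adjusted p = 0.44 from edgeR). With UPF1, SMG6 and SMG8 this makes 4 of 6 factors whose G418 libraries were both lower, a pattern seen in 24.8% of all transcripts, while 26.5% had both G418 libraries higher.

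The intervals of the fold change show which rises lie inside them under TMM scaling and edgeR's variance estimate, and are not absolute limits. The upper ends of the 95% intervals of the fold change in CDS counts were 0.902 for UPF1, 1.05 for CASC3, 1.08 for SMG9, 1.09 for SMG8, 1.14 for UPF2 and 1.15 for SMG6. Scaling by library totals moved the median log2 fold change of all transcripts by 0.104 and raised every factor. The log2 fold changes of SMG6, SMG8 and UPF2 then became 0.031, 0.011 and 0.058, the upper ends reached at most 1.24 (SMG6), and 0 factors were called higher. That scaling also turned the split of all calls to 887 higher and 120 lower.

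**Figure D2:**
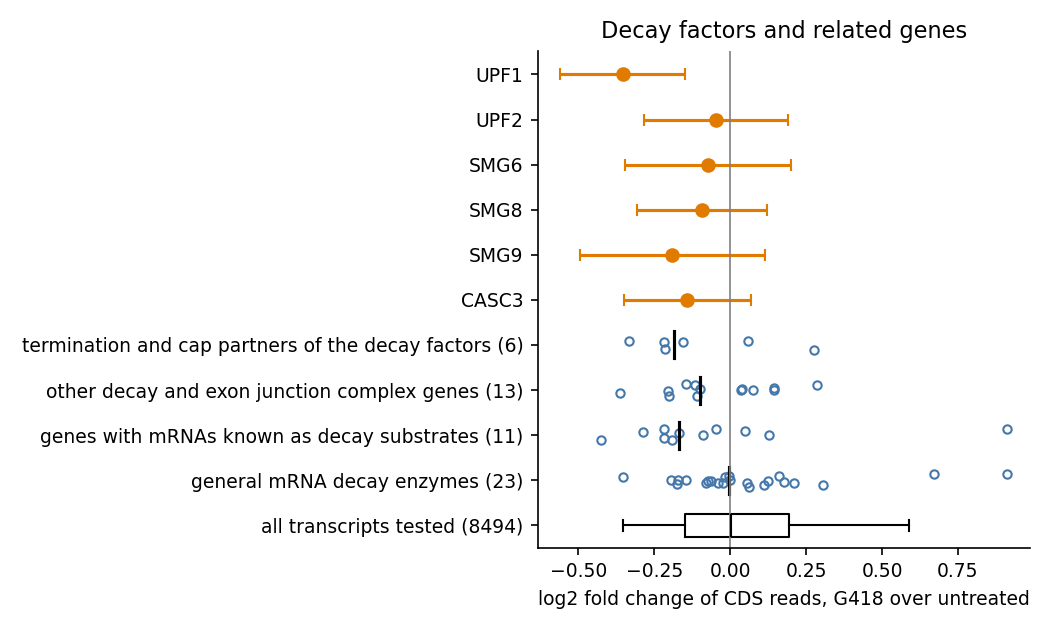
Log2 fold change in CDS reads, G418 over untreated. Orange points and bars are the 6 decay factors with 95% intervals, open circles are genes of 4 related lists with their medians as vertical lines (numbers of genes in parentheses), and the box plot shows all 8494 transcripts tested, with the quartiles and whiskers at the 5th and 95th percentiles. The interval of UPF1 lies below 0, and those of the other 5 factors cross 0.

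On the scale of CDS density, which allows genes of different length to be compared, the order of the factors in untreated cells was UPF1 (49.91 ± 4.56 RPKM, SD, n = 2), CASC3 (40.94 ± 1.22), SMG8 (24.09 ± 2.79), SMG9 (18.13 ± 1.22), UPF2 (12.66 ± 2.45) and SMG6 (7.003 ± 0.699). No neighbours in this order overlapped between libraries. In G418-treated cells the order was the same, at 40.84 ± 3.17 RPKM for UPF1, 39 ± 3.98 for CASC3, 23.89 ± 1.34 for SMG8, 16.42 ± 3.45 for SMG9, 13.13 ± 0.898 for UPF2 and 7.058 ± 0.514 for SMG6 (SD, n = 2 for each). There the libraries of UPF1 and CASC3 overlapped, and the means of SMG9 and UPF2 differed by less than the SD of SMG9. UPF1 stood above 75.2% of all transcripts in untreated CDS density and SMG6 above 28.5%. SMG6 thus combined the longest CDS of the 6 (4260 nt) with the lowest density.

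Genes that work with the decay factors were taken from 4 lists. Of 16 other genes of decay and the exon junction complex, 13 were tested, 0 were called higher and 1 lower, with a median log2 fold change of -0.10. The gene called lower was RUVBL2, an ATPase that acts with the SMG1 complex (log2 fold change -0.36, adjusted p = 0.008 from edgeR). Of 8 partners in termination and cap binding, 6 were tested and 0 were called in either direction (edgeR), with a median of -0.18. In that list 4 genes had an unadjusted p under 0.05, of which EIF4G1 (-0.22), GSPT2 (-0.33) and PABPC4 (-0.21) had log2 fold changes below 0 and ETF1, the release factor that reads stop codons, one of 0.28. These 4 were named after their values were seen.

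Of 24 enzymes of general mRNA decay, 23 were tested, 2 were called higher and 1 lower, with a median of -0.0037. CNOT6 (log2 fold change 0.91, adjusted p = 0.00018) and CNOT7 (0.67, adjusted p = 0.014), deadenylases of the CCR4-NOT complex, rose in edgeR's test. WDR61, a subunit of the SKI complex that serves the exosome, fell by 0.35 on the log2 scale (adjusted p = 0.014 from edgeR).

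Of 12 genes whose mRNAs are known substrates of the pathway, 11 were tested, 1 was called higher and 0 lower, with a median log2 fold change of -0.17. The gene called higher was ATF4 (0.91, adjusted p = 0.0001 from edgeR), a transcription factor whose mRNA is also controlled by upstream open reading frames under stress. The other 10 ranged from GADD45B at -0.43 to CDKN1A at 0.13, and 0 of them passed the test. The lists were read against the same background of 5.31% higher and 3.21% lower.

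The CDS pattern of the factors over the 4 libraries was also used to find like genes. The mean centered log2 CPM of the 6 factors were 0.062 in untreated A, 0.088 in untreated B, -0.030 in G418 A and -0.12 in G418 B. Among 3343 candidates, the smallest distances to this pattern over the 4 libraries were those of CKMT1B (0.0125), VAMP3 (0.0176) and CIAPIN1 (0.0183). CKMT1B has a near-identical copy, CKMT1A, so its reads are uncertain.

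Readthrough of the factors' own stop codons rested on few reads. The ribosome readthrough score (RRTS) divides the RPF density of the stretch from the NTC to its nearest in-frame 3′TC by that of the CDS. The reads in that stretch were therefore set beside the reads that CDS density would place there, and intervals on them cover counting error only. With the reads of the 6 factors summed, the RRTS was 2.51% and 9.03% of CDS density in untreated A and B, from 2 and 3 reads. In G418 A and B it was 19.01% and 25.69%, from 14 and 15 reads. The means were 5.77% ± 4.60 and 22.4% ± 4.72 (SD, n = 2 for each), beside 1.90% ± 0.134 and 15.4% ± 0.523 for 6503 other transcripts. The 95% counting intervals of the factors were 0.304% to 9.08% and 1.86% to 26.4% in untreated A and B. In G418 A and B they were 10.4% to 31.9% and 14.4% to 42.4%. The other transcripts (1.99%, 1.81%, 15.8% and 15.1% in the same order) lay inside all of these but that of untreated B. Both G418 libraries were thus higher than both untreated libraries for the summed factors as for the others. CASC3 held 4 of the 5 untreated reads. Without it the means were 1.78% ± 2.52 and 17.8% ± 9.26 (SD, n = 2), a comparison made after the values were seen.

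**Figure D3:**
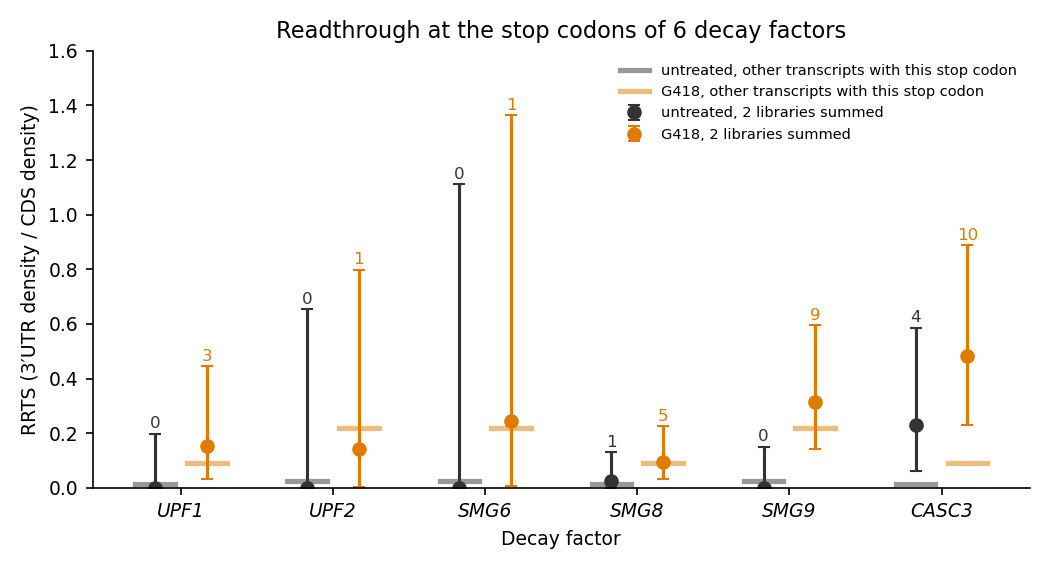
RRTS of the 6 decay factors with the reads of both libraries of a condition summed and exact 95% Poisson intervals (counting error only). Numbers above the bars are the reads before the first 3′TC, and pale horizontal lines are the aggregate RRTS of all other transcripts with the same stop codon. The interval of CASC3 lies above the pale line in both conditions, and in G418-treated cells the intervals of the other 5 factors include it.

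UPF1 had 0 reads before the first 3′TC in both untreated libraries, 2 in G418 A and 1 in G418 B. CDS density would place 18.71 reads there in the untreated libraries together and 19.72 in the treated ones, so the RRTS in G418-treated cells was 0.152 (95% interval 0.0314 to 0.445). This includes 0.0894, the aggregate of other TAA transcripts. UPF2 had 0, 0, 0 and 1 such reads in untreated A, untreated B, G418 A and G418 B, and SMG6 had 0, 0, 1 and 0. For these 2 factors CDS density would place only between 3.321 and 6.973 reads there per condition. No fold change can be given for UPF1, UPF2 or SMG6, because both conditions lie at or under the floor of 3 reads, and a difference was not detectable at this depth.

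SMG8 had 0 and 1 reads in untreated A and B and 0 and 5 in G418 A and B. All 5 treated reads came from a single library, and the RRTS with both libraries summed was 0.0232 in untreated and 0.0964 in G418-treated cells, a ratio of 4.15 with a counting interval of 0.464 to 196. SMG9 had 0 reads in both untreated libraries and 4 and 5 in G418 A and B. Both treated libraries were higher, at an RRTS of 0.234 and 0.432. With both treated libraries summed the RRTS was 0.314, against 0.122 if both untreated libraries together had held 3 reads, a ratio of 2.58. That ratio leaves out counting error in the treated reads. The upper end of the untreated interval (0.15) lay above the lower end of the treated interval (0.144). The aggregate of other TGA transcripts in G418-treated cells was 0.22, inside the interval of SMG9 (0.144 to 0.596).

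CASC3 had a higher RRTS than most transcripts with its stop codon. It had 2 reads in each untreated library, and 7 and 3 in G418 A and B, with an RRTS of 0.162 and 0.389 in untreated A and B and 0.605 and 0.328 in G418 A and B. The treated and untreated libraries overlapped. With both libraries summed, the RRTS in untreated cells was 0.229 (95% interval 0.0624 to 0.587). Of 1851 other TAA transcripts, 50.7% were at 0 in untreated cells, and CASC3 exceeded 96.7%. Their aggregate was 0.0151. In G418-treated cells the RRTS of CASC3 was 0.482 (0.231 to 0.887), against an aggregate of 0.0894 and a median of 0.138. It exceeded 91% of these transcripts. The ranking is given for CASC3 alone, after its values were seen. No other transcript in GENCODE 44 has coding sequence over the 36 nt that separate the NTC and 3′TC of CASC3, and the same was true of this stretch in the other 5 factors.

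In the test of RRTS across all transcripts, edgeR called 2336 of 2827 transcripts higher in G418-treated cells (82.6%) and 2 lower (0.0707%). It requires 10 reads before the 3′TC over the 4 libraries, a minimum that transcripts mostly reach through their treated libraries. Only 1 of the 6 factors reached it, CASC3, which was not called (log2 fold change 1.03, standard error 0.90, adjusted p = 0.27 from edgeR). The interval of its fold change ran from 0.602 to 6.95, and DESeq2 also called 0 factors. The log2 fold change of CASC3 was 0.30 without untreated A, 1.51 without untreated B and 1.35 without G418 B, and without G418 A it fell under the minimum of reads. With a minimum of 5 reads, SMG8 and SMG9 entered the test as well, and 2701 of 4076 transcripts were called higher (66.3%) and 0.0491% lower. SMG9 then passed it (adjusted p = 0.01 from edgeR), having reached the minimum through its treated libraries alone, and SMG8 did not (log2 fold change 1.83, adjusted p = 0.26). Over the whole 3′UTR, 2871 of 4086 transcripts were called higher (70.3%) and 0.245% lower. SMG9, with 0 reads in untreated and 11 in treated cells, again reached the minimum through its treated libraries alone and passed the test (adjusted p = 0.0034 from edgeR). They numbered 8 in untreated and 22 in treated cells for CASC3 (adjusted p = 0.088) and 5 and 11 for UPF1 (adjusted p = 0.26).

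Of the related lists, 8 of 12 tested enzymes of general decay were called higher in RRTS with G418, as did 4 of 5 other decay and exon junction complex genes (MAGOH, PYM1, RNPS1 and RUVBL2). All 4 partners tested (EIF4G1, ETF1, NCBP2 and PABPC4) and 1 of 2 known substrates (NAT9) were also called higher, and 0 of these genes was called lower (edgeR). These counts stand beside the 82.6% called higher over all transcripts tested, under the same minimum of reads that is mostly reached through treated libraries. These genes were named for having passed the test.

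Reads in the 5′UTR were compared because translation upstream of the CDS is a feature that can bring an mRNA to decay. SMG9 had 28 and 18 reads in untreated A and B and 23 and 35 in G418 A and B, or 11.86, 15.93, 9.504 and 21.34 per 100 CDS reads. UPF1 had 35 and 35 in untreated A and B and 37 and 47 in G418 A and B, or 2.525, 5.095, 3.081 and 4.776 per 100. UPF2 had 20, 5, 13 and 14, or 4.107, 3.106, 2.975 and 3.857 per 100. The conditions overlapped for all 3.

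Among 4181 transcripts with enough 5′UTR reads, edgeR called 0 higher (0%) and 58 lower (1.39%) per CDS read in G418-treated cells. At an unadjusted p of 0.05 there were 582 in either direction. DESeq2 called 0 higher and 41 lower among the 1020 transcripts it tested, and gave no adjusted p for UPF1, UPF2 or SMG9. The 3 factors tested gave log2 fold changes of 0.10 for UPF1 (adjusted p = 0.94), 0.090 for SMG9 (adjusted p = 0.95) and -0.21 for UPF2 (adjusted p = 0.88), all from edgeR, beside a median of -0.21 over all transcripts. The intervals of their fold changes were wide, from 0.607 to 1.9 for UPF1, 0.568 to 2 for SMG9 and 0.434 to 1.73 for UPF2. In the related lists, ATF4 (log2 fold change -0.77, adjusted p = 0.0077) and MAGOH (-1.61, adjusted p = 0.04) were called lower by edgeR, and 0 genes were called higher. Both were named after their values were seen.

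**Figure D4:**
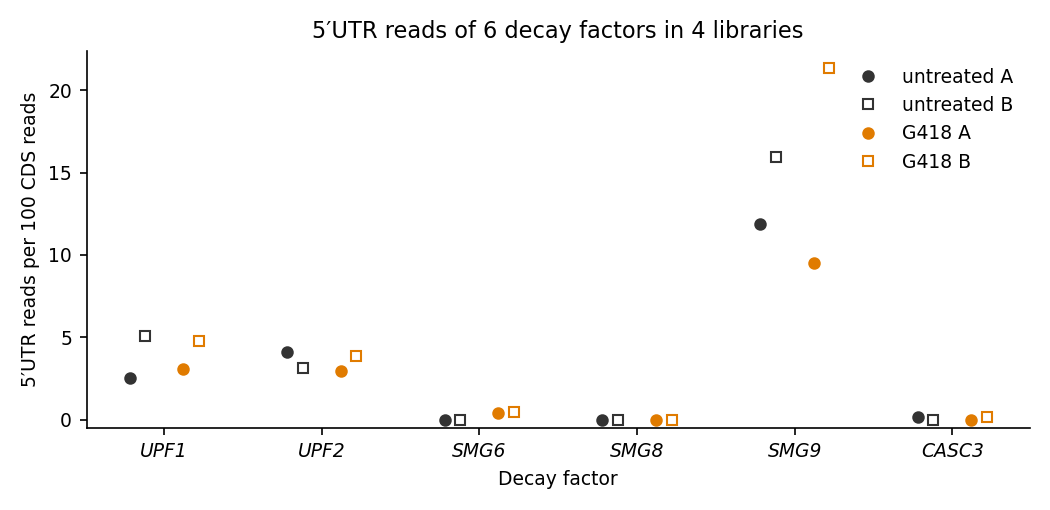
5′UTR reads per 100 CDS reads of the 6 decay factors in each library, with filled circles for replicate A and open squares for replicate B. SMG9 lies between 9.504 and 21.34, UPF1 and UPF2 between 2.525 and 5.095, and SMG6, SMG8 and CASC3 at 0.461 or lower.

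Per nucleotide, 5′UTR density in untreated cells was 65.3% of CDS density in SMG9, 54.3% in UPF2 and 42.2% in UPF1, against a median of 31.2% over 8445 transcripts. In G418-treated cells these values were 70.7%, 47.5% and 48%, against a median of 28.2%. SMG6 had 0 reads in untreated A and B and 1 in each G418 library over its 5′UTR of 65 nt. CASC3, whose 5′UTR is only 12 nt long, had 1, 0, 0 and 1. SMG8 had 0 reads in all 4 libraries over a 5′UTR of 264 nt.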

How the data were processed

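The authors removed duplicate reads by their molecular identifiers, aligned the rest with STAR to hg38 (GENCODE 30 transcripts), and assigned full-length RPFs to a single transcript per gene. Multiply mapped reads were allowed. The deposited counts are unnormalized RPFs per region. The deposited RPM values are scaled by the authors to mapped reads, and the deposited RPKM values divide RPM by region length, with 6 nt after the NTC left out. The RRTS is a ratio computed by the authors. The 5′UTR densities that the authors deposited, recorded as a score, were left out.

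Whole reads were recovered from RPM values (100% whole within 0.01 read). Deposited CDS counts lay 1 below them for between 0.113% and 99.9% of transcripts per library. CDS and 5′UTR tests used the deposited counts, and readthrough used the recovered reads. Tests were made with edgeR 4.0.16 (R 4.3.3), all 4 libraries and no covariate. CDS counts used TMM scaling and filterByExpr. Readthrough and 5′UTR tests used log(CDS reads + 0.5) as offset, with minimums of 10 reads before the 3′TC and 128 mRNA reads per condition, or 20 5′UTR and 128 CDS reads. The adjusted p threshold was 0.05 over all transcripts tested. DESeq2 1.42.0 was an alternative. Reference features came from GENCODE 44. Of the 8568 transcripts, 8377 matched by identifier. Intervals on counts are exact Poisson intervals (95%), and that of the SMG8 ratio is an exact binomial interval (95%). Both, like the floor of 3 reads, cover counting error only. With 2 libraries against 2, an exact permutation test of 1 value per library cannot go below p = 0.333, so none is given.

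All decay factors were named. From each related list, the genes named are up to 2 rises and 2 falls in CDS counts past the threshold, and like genes are the 3 nearest patterns. Genes outside this rule are named where a count of calls refers to them or as the ends of a range, after their values were seen. The factors and lists were chosen with earlier results of these data known. The labels do not say that libraries of the same letter share a batch. The tests were checked on simulated data. Changes were placed there only in transcripts with more reads than the factors had before the 3′TC, so the check does not cover such low counts. Other software was matplotlib 3.10.9, scipy 1.17.1, pandas 2.3.3, numpy 2.4.6 and Python 3.11.15.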

Additional observations from a re-analysis of the deposited data

How the results depend on the processing

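In CDS counts, 0 decay factors were called higher in each of the 10 other settings. The lower call of UPF1 was lost (0 factors lower) with DESeq2, with library totals, with a stricter minimum of CDS counts in each condition, and without either G418 library, so that leaving out single libraries gave 0 to 1 factors lower and log2 fold changes of -0.51 to -0.21 for UPF1. SMG6, SMG8 and UPF2 changed sign with library totals (0.031, 0.011 and 0.058), and UPF2 ranged from -0.15 to 0.13 over single libraries left out. Over all transcripts, CDS calls were 113 higher and 140 lower with DESeq2, 887 and 120 with library totals, and 57 to 990 higher and 15 to 1092 lower over single libraries left out. The lone library of a condition was then assumed to vary like the pair. For RRTS, DESeq2 called 1408 higher and 1 lower, a minimum of 20 reads gave 1536 higher, the whole 3′UTR gave 10 lower, and single libraries left out gave 1392 to 2251 higher and 1 to 2 lower. SMG9, with 0 untreated reads, was the 1 factor called higher with a minimum of 5 reads, where 66.3% of all transcripts were, and over the whole 3′UTR, where 70.3% were. CASC3 ranged from 0.30 to 1.51 over single libraries left out. For 5′UTR reads per CDS read, recovered reads gave 1 transcript higher, and single libraries left out gave 0 to 38 higher and 10 to 401 lower. Under these the log2 fold changes ranged from -0.56 to 0.61 for SMG9, from -0.41 to 0.60 for UPF1 and from -0.44 to 0.075 for UPF2. The cause of these changes was not tested. The deposited counts hold no column for the reads before the 3′TC, so that alternative was not run for RRTS.

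Both conditions have libraries lettered A and B. The deviations of untreated and G418 libraries from their group means correlated at 0.144, a single value because A and B mirror each other in groups of 2, and no label gives a shared batch, so the letters were not taken as pairs. With the letter as a replicate block, UPF1 stayed lower (log2 fold change -0.35, adjusted p = 0.0023 from edgeR). CDS calls over all transcripts were 618 higher and 452 lower, 5′UTR calls 20 higher and 260 lower, and SMG9 had a 5′UTR log2 fold change of -0.0016. Depth limits the readthrough values. At CDS density fewer than 7 reads would be placed before the 3′TC of UPF2 or SMG6 per condition.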

Other observations

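SMG8 was the 1 decay factor without a single RPF in its 5′UTR in any library, despite 2069 CDS reads over the 4 libraries. Of 1001 transcripts with a counted 5′UTR of at least 200 nt and at least 1000 CDS reads, 18 (1.8%) had none, and the median was 130 reads. This comparison was made after the values of SMG8 were seen.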
